A study of Mus musculus with 12 samples.

Results

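The nuclei described here are the 175 nuclei of cultured primary hepatocyte preparations that the authors' annotation placed in their cluster 27 and labelled as cultured cells. They were 0.951% of the 18394 nuclei of Primary Hepatocytes and 0.327% of the 53467 annotated nuclei of the series. They are called cultured stellate nuclei below because their marker genes were those of hepatic stellate cells. The study isolated nuclei from the Liver of 8 mice, from the Cell Suspension obtained after liver perfusion and purification, and from Primary Hepatocytes kept for 24 h in culture, and sequenced them with single-nucleus RNA sequencing. The labels give the strain as C57BL6J and the study's methods give chow-fed male C57BL/6NTac mice of 10 to 12 weeks, with no genetic change in any group. Cells were plated on collagen in medium with 10% fetal bovine serum and were then kept with 0.5% serum, 1 µM dexamethasone and 1 nM insulin, so these additions, which the Liver nuclei did not receive, are shared by all cultured nuclei and cannot be told apart from culture itself. By the study's methods, the Liver piece was removed before collagenase perfusion. Cultured cells had gone through that perfusion and were harvested with trypsin-EDTA, steps that cannot be told apart from culture either. The preparations were made to hold hepatocytes, so the stellate nuclei in them were those left after purification, and a change within each nucleus cannot be told apart from a change in which stellate cells were recovered and survived. The comparison groups were the 878 Liver nuclei and the 144 Cell Suspension nuclei annotated as stellate cells, and the 14760 hepatocyte nuclei of the same cultures. All 3 sample types came from the same 8 mice.

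Hepatic stellate cells lie in the space between the sinusoidal endothelium and the hepatocytes. In healthy liver they store vitamin A as retinyl esters, respond to vasoactive signals and release growth factors. After injury, or when kept on a stiff surface, they are known to lose these features and to become activated cells that make collagen, contract and divide. Quiescent stellate cells also carry many genes better known from neurons.

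The cultured stellate nuclei held few RNA molecules, which limits every value below. Their unique molecular identifier (UMI) totals ran from 18308 to 141460 per mouse, against 236240 to 754880 in Liver and 27630 to 76185 in Cell Suspension. The number of cultured stellate nuclei per mouse was 14, 17, 50, 12, 41, 15, 7 and 19 for mice 1 to 8, and mice 3 and 5 together held 91 of the 175. The nuclei were sequenced in 6 pools of several hashtagged samples, and only pools 2 and 5 held both Liver and cultured stellate nuclei. The margin of the hashtag assignment had a median over mice of 0.844 in cultured stellate nuclei and 0.925 in Liver stellate nuclei on a scale from 0 to 1. The culture of mouse 7 stood apart, with a median margin of 0.457 and 57.1% of its 7 nuclei below 0.5, and 2869 genes were called against Liver without mouse 7, against 2990 with all mice. None of the 175 barcodes was shared with an annotated nucleus of another pool, whereas 339 barcodes recurred between pools in the series as a whole. Another 6 nuclei of cluster 27 were assigned to Liver or Cell Suspension samples and were left out.

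Stellate nuclei took up a smaller share of the cultures than of the Liver. Their share of all nuclei ran from 2.32% to 5.91% in Liver (4.42% ± 1.28, SD, n = 8) and from 0.312% to 2.25% in Primary Hepatocytes (0.944% ± 0.640, SD, n = 8), and the groups did not overlap (exact permutation test, two-sided, p = 0.0001554, the smallest it can give; paired by mouse, p = 0.0078125). The cultured share counts cluster 27 only, without the 17 nuclei annotated with the tissue cluster that are described below. Mouse 3, the highest culture, held 4 of these, and with them its share exceeds that of the lowest Liver. Cell Suspension already had a share of 1.04% ± 0.502 (SD, n = 8). Per nucleus, the median number of UMIs averaged 3315 ± 747 (SD) over the 8 Livers and 2158 ± 552 (SD) over the 8 cultures, and these groups overlapped (exact permutation test, two-sided, p = 0.00124). Of spliced and unspliced UMIs, with ambiguous ones left out, the spliced made up 16.6% ± 1.68 (SD, n = 8) in Liver stellate nuclei. The share was 24.8% ± 3.69 in Cell Suspension and 31.2% ± 1.91 in cultured stellate nuclei, without overlap between Liver and cultures (exact permutation test, two-sided, p = 0.0001554). Other nuclei of the cultures had similar spliced shares, from 26.6% to 31.2% in hepatocytes and from 28.2% to 36.5% in endothelial nuclei, side by side with the stellate values and without a test.

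**Figure D1:**
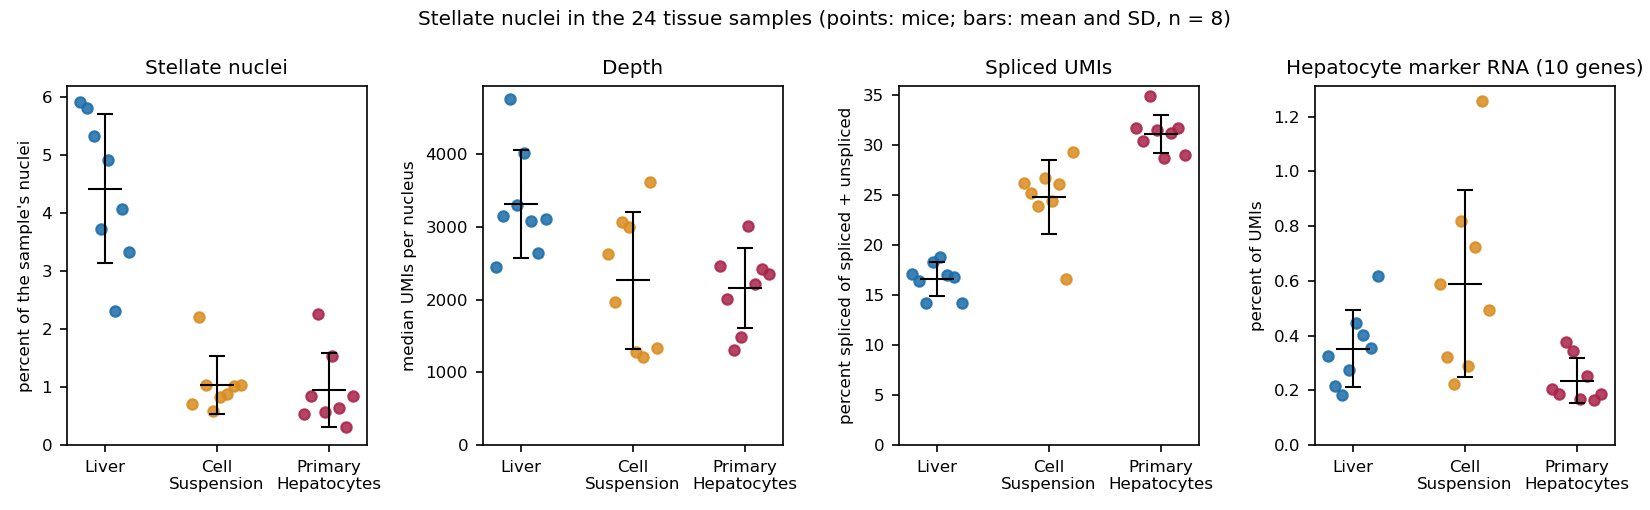
Share of nuclei (%), median UMIs per nucleus, spliced share of spliced and unspliced UMIs (%) and hepatocyte marker RNA (% of UMIs) of stellate nuclei, with a point for each mouse and the mean ± SD of the 8 mice of each sample type. The share of nuclei and the spliced share separated Liver from Primary Hepatocytes completely, while UMIs per nucleus and hepatocyte marker RNA overlapped.

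The 7 genes given as markers of the cluster describe it and cannot test its label, since the authors formed the clusters from expression. Nrxn3 is a neurexin, Rbms3 an RNA-binding protein, Dcn the proteoglycan decorin, Pcdh7 a protocadherin, Gpc6 a glypican, Pde3a a phosphodiesterase of cyclic nucleotides, and Rhoj a small GTPase. At least 3 of the 7 were detected in 92.0% of cultured stellate nuclei, in 96.0% of Liver stellate nuclei, in 1.44% of 1800 cultured hepatocyte nuclei drawn at random and in 1.04% of cultured endothelial nuclei. With every nucleus thinned to 600 UMIs, to remove the effect of depth, the shares were 84.0%, 84.4%, 0% and 0.117% (0 of the 1800 thinned hepatocyte nuclei). The median depth was 1984 UMIs in cultured stellate nuclei and 6572 in the drawn hepatocytes, so the difference in detection ran against depth. Summed over the 7 genes, the unscaled level was 11317 to 21243 CPM (UMIs scaled to a common library size) in cultured stellate nuclei, 15313 to 19655 in Liver stellate nuclei and 56.3 to 87.0 in cultured hepatocytes.

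The comparison with Liver asked which genes differed between cultured stellate nuclei and the stellate nuclei of the intact tissue. UMIs were summed per mouse and compared with edgeR's quasi-likelihood test over 8 sums a group, and a gene was called at a Benjamini-Hochberg adjusted p under 0.05. Of 14196 genes tested, 2063 (14.5%) were higher and 927 (6.53%) were lower in the cultures. The median log2 difference of all genes was 0.25, so differences are to be read relative to that shift. The split depended on the scaling: 1734 higher and 1121 lower with DESeq2's size factors in edgeR, 1787 and 997 with DESeq2 itself, and 973 and 2521 with TMM factors taken over all genes, for which the median of all genes was -0.40. Against Cell Suspension, 1142 genes (8.04%) were higher and 913 (6.43%) lower, or 720 and 1228 with TMM factors over all genes. Both contrasts share the cultured sums. They called 987 genes higher and 630 lower in common, and 11 in opposite directions. Per-sample levels below are CPM scaled by these normalization factors, and differences are log2 (Primary Hepatocytes over Liver) ± standard error. In these comparisons the cultures stand for their cultured stellate nuclei of cluster 27, without the 17 tissue-annotated nuclei described below.

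Among the 7 marker genes, 2 were higher than in Liver, 3 were lower and 2 were not called. Because the cluster was formed from expression, the p-values and overlaps of its markers describe it and support nothing. Nrxn3 (chr12:88722876-90334935, GRCm38, plus strand) had 3172 to 4645 CPM in Liver (median 3587) and 4258 to 9031 in the cultures (median 6601), a difference of 0.76 ± 0.17 (edgeR, adjusted p = 0.000504). The ranges overlapped at their edge, and the call was lost with TMM factors over all genes (0.03), with pool as a covariate (0.58) and with the 17 tissue-annotated cultured nuclei described below added (0.47). Rhoj (chr12:75308322-75401456, plus strand) ran from 125 to 290 CPM in Liver (median 193) and from 821 to 1691 in the cultures (median 1400), a difference of 2.78 ± 0.20 (edgeR, adjusted p = 1.4e-18). Every culture lay above every Liver. Rbms3 (chr9:116572746-117629913, minus strand) fell from 4894 to 6994 CPM in Liver (median 5410) to between 2369 and 4377 (median 3439), a difference of -0.72 ± 0.15 with no overlap. Gpc6 (-0.66 ± 0.19) and Pde3a (-1.04 ± 0.19) were lower too, with overlapping ranges. In spliced and ambiguous UMIs alone Rbms3 (-0.54), Gpc6 (-0.55) and Pde3a (-0.74) were not called, and with all sums thinned to 18308 UMIs Rbms3 (-0.26) and Gpc6 (-0.18) were not called. Gpc6 was also not called in unspliced UMIs alone (-0.36) or at or above the median margin (-0.37). Dcn, with 884 to 1617 CPM in Liver and 774 to 1814 in the cultures, differed by 0.22 ± 0.19 (adjusted p = 0.46), and Pcdh7 by 0.24 ± 0.20 (adjusted p = 0.42). Pcdh7 was called higher in spliced and ambiguous UMIs alone (1.25, edgeR, adjusted p = 0.00532) and among nuclei at or above the median hashtag margin (0.80, adjusted p = 0.00564), and was -0.49 and not called with TMM factors over all genes.

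**Figure D2:**
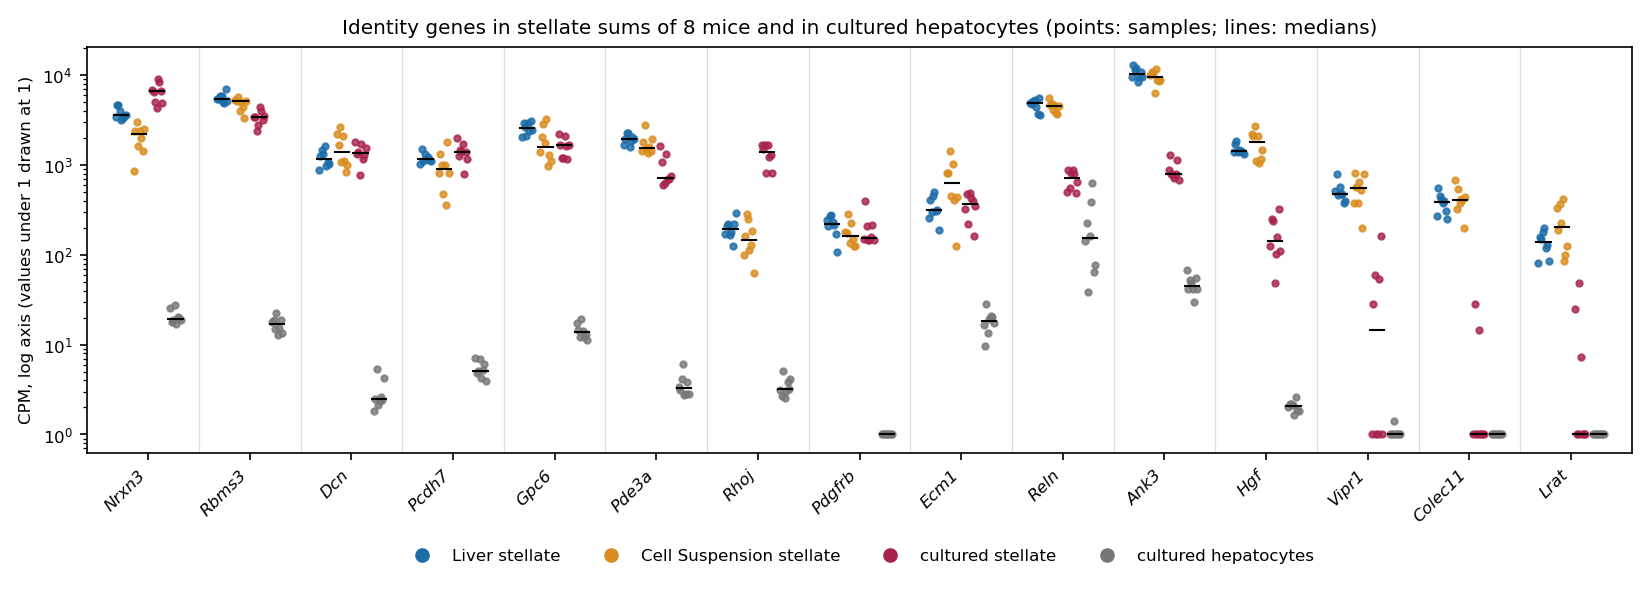
Levels in CPM on a log axis of marker genes of the cluster and of quiescent stellate cells, with a point for each mouse in Liver, Cell Suspension and cultured stellate nuclei and in cultured hepatocytes (values under 1 drawn at 1). Nrxn3 and Dcn overlapped with Liver, Rhoj lay above it, and Reln, Ank3, Hgf and Lrat lay below it in all 8 cultures.

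A longer list of 18 stellate markers lay lower. The cluster was formed from expression, so their p-values and overlaps describe it too. Of the 18, 12 were lower in the cultures, none was higher (edgeR, also at an unadjusted p under 0.05) and 6 were not called, with a median difference of -2.99 (-2.76 with genes at 0 set to their bound). Their summed unscaled level was 23754 to 33509 CPM in Liver, 17139 to 37316 in Cell Suspension and 3280 to 4791 in the cultures. Reln, the secreted matrix protein reelin, fell from a median of 4847 CPM (3648 to 5553) to 718 (482 to 871), a difference of -2.75 ± 0.17 (edgeR, adjusted p = 8e-22). Hgf, the growth factor that acts on hepatocytes, fell from 1423 CPM (1310 to 1845) to 142 (48.4 to 321), a difference of -3.22 ± 0.24. Neither gene overlapped between the groups. Lrat, the enzyme that makes retinyl esters and so defines the vitamin A store, had 508 UMIs in Liver and 3 in all cultured stellate nuclei together. This was a ratio of 19.3 after scaling (95% counting interval 6.57 to 93.9). Of the members at 0 UMIs in the cultures, Angptl6 was at least 8.24-fold lower and Ngfr, a neurotrophin receptor, at least 4.33-fold lower, from 3 counts over the group. Pdgfrb, a growth factor receptor of mesenchymal cells, differed by -0.20 ± 0.25 (adjusted p = 0.62) and was not called, but was called lower with TMM factors over all genes (-0.91, edgeR, adjusted p = 0.00319). Ecm1, a secreted matrix protein, differed by 0.06 ± 0.26, yet its unspliced UMIs were 77 in Liver and 0 in the cultures while spliced and ambiguous UMIs numbered 1174 and 150, and its unspliced difference alone was -4.99 and called (edgeR, adjusted p = 0.00846). It was also called lower with pool as a covariate (-0.91, edgeR, adjusted p = 0.0253).

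The authors' annotation placed another 17 nuclei of Primary Hepatocytes in the stellate cluster of the tissue. These are not among the 175. The authors' clustering by expression had set them apart, so p-values and overlaps against Liver, above and below, partly describe that division. Their pooled level of Ank3, an ankyrin that ties membrane proteins to the cytoskeleton, was 4114 CPM, against 787 in the cultured stellate nuclei and 10818 in Liver. Pooled Nrxn3 was 1203 CPM against 6723 and 4003, and Col12a1 was 210 against 773 in the cultured stellate nuclei. The 17 nuclei held 142924 UMIs and the 175 held 426724. With the 17 added, 3382 genes were called against Liver and 2005 against Cell Suspension. Of the single-gene differences from Liver, 157 then kept direction and call, 3 lost the call and 2 reversed.

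RNA of other cell types was measured beside these results. Hepatocyte markers made up 0.352% ± 0.140 (SD, n = 8) of UMIs in Liver stellate nuclei and 0.235% ± 0.0820 in the cultures (exact permutation test, two-sided, p = 0.0533). Of 10 hepatocyte markers, 3 were lower and none higher, against 7 and none with TMM factors over all genes and 2 and 1 with thinned sums. Albumin was detected in 84.0% of cultured stellate nuclei and 96.1% of cultured hepatocytes, with mean unscaled levels of 976 and 1349 CPM, so its level in nuclei of this cluster lay near that of hepatocytes, and the same held for cultured endothelial nuclei, at 1317 CPM. With thinned sums albumin was called higher in cultured than in Liver stellate nuclei (0.97, edgeR, adjusted p = 0.00215), against 0.40 and no call as reported. Of 10 endothelial markers 2 were higher, near the 14.5% of all genes. The unscaled sum of the 10 was 195 to 514 CPM in Liver stellate nuclei (median 326) and 273 to 1188 in cultured ones (median 785). In cultured endothelial nuclei it was 4945 to 7343 CPM. None of the 5 of 7 Kupffer markers and the 2 of 5 leukocyte markers with enough UMIs to be tested was called by edgeR, with 1 Kupffer marker higher and no leukocyte marker at an unadjusted p under 0.05. The unscaled Kupffer sum had a median of 26.1 CPM over the cultures but reached 492 in the highest, against 16.9 to 44.9 in Liver stellate nuclei. The biliary, mesothelial, portal fibroblast and smooth muscle lists each had 1 gene lower, of 3, 2, 3 and 4 tested. Of 6 Schwann and neuronal markers 3 were tested and none of these was called by edgeR, with 1 lower at an unadjusted p under 0.05. The part of free RNA in the differences was not tested.

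The genes with the largest falls were led by 2 collectins. By a fixed rule (called, at least 100 CPM in the higher group and no overlap), 265 genes fell and 292 rose, and the genes named here are from the 12 with the largest difference in each direction. Colec10 (chr15:54410774-54466358, plus strand) and Colec11 encode collectins, secreted proteins that recognise microbial sugars. Colec10 had 851 to 1636 CPM in Liver (median 1114) and 1 UMI in all cultured stellate nuclei, a ratio of 460 (95% counting interval 82.6 to 18186). Colec11 had 1362 UMIs in Liver and 3 in the cultured stellate nuclei, a ratio of 51.7 (17.7 to 251). Both were thus near the limit of detection in the cluster 27 nuclei of every culture. Nr1h5 (chr3:102939658-102964133, minus strand), a nuclear receptor, fell from 638 to 945 CPM (median 859) to between 0 and 145 (median 0), a difference of -5.46 ± 0.39. Egfem1 fell by 5.41, Mamdc2 by 4.68 and Nckap5 by 4.40 on the log2 scale. Ratios from 1 to 3 cultured UMIs were 44.1 for Dcdc2a, 39.9 for Rasgrp2 (an exchange factor for Rap GTPases), 36.4 for Frem1 (a basement membrane protein), 34.6 for Fam19a1, 26.9 for Adamts5 (an aggrecan-cleaving protease) and 24.7 for C1qtnf7. That none of the 12 overlapped between Liver and culture was required by the rule. Counting spliced and ambiguous UMIs alone ended the calls of Egfem1 (-2.73), Fam19a1 (-3.26) and C1qtnf7 (-0.85), and unspliced UMIs alone that of Rasgrp2 (-3.52).

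Of 24 genes of cyclic nucleotide and vasoactive signalling, through which stellate cells respond to vessel tone, 12 were lower and none was higher (edgeR; 14 lower and 2 higher at an unadjusted p under 0.05), with a median difference of -1.33. Vipr1, a receptor for vasoactive intestinal peptide, fell from a median of 475 CPM to between 0 and 161 without overlap, a difference of -4.28 ± 0.41. Agtr1a, the angiotensin receptor, fell by 2.83, Ednrb, an endothelin receptor, by 2.59, Adcy5, an adenylyl cyclase, by 2.48, and Gucy1a2, a subunit of the nitric oxide receptor, by 2.96 on the log2 scale. Prkg1, the kinase activated by cyclic GMP, fell by 1.82. Among 38 genes of neural adhesion and guidance 14 were lower and 8 higher, the latter near the 14.5% of all genes, or 15 and 3 with TMM factors over all genes. Ntm fell by 4.37, Lsamp by 4.08 and Epha7 by 3.66, while the protocadherin Pcdh9 rose by 1.86.

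Of 16 retinoid genes tested, 5 were lower and 3 higher, with a median of -0.21. The 3 of 16 lay near the 14.5% of all genes called higher, and with TMM factors over all genes 8 were lower and 3 higher. With thinned sums 3 were lower and 3 higher, with a median of 0.01. The retinal dehydrogenase Aldh1a1 fell by 2.58 and the nuclear receptor Rxra by 2.16, which with thinned sums was -1.08 and not called. Cyp26b1, which breaks down retinoic acid, had 10 UMIs in Liver and 49 in the cultures, at 0 to 341 CPM (median 56.1) against 0 to 4.16 (median 2.99), a difference of 5.18 ± 0.50. At least 1 culture had none, so the groups overlapped. Rdh10, which makes retinal from retinol, rose by 2.24 ± 0.39 without overlap. Lpl (chr8:68880491-68907448, plus strand), the lipoprotein lipase, rose from 10.6 to 29.1 CPM (median 12.8) to between 53.6 and 398 (median 142), a difference of 3.19 ± 0.36.

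Of 30 transcription factors of stellate and mesenchymal cells, 11 were lower and 7 higher, or 14 and 4 with TMM factors over all genes, where the median moved from -0.48 to -1.14. Lhx2, Gata4 and Zeb2 fell by 3.45, 1.62 and 1.84 on the log2 scale, and Tcf4 by 1.36. Runx1 rose by 3.41 ± 0.32, Runx2 by 2.35 ± 0.36, Creb5 by 2.96 ± 0.34 and Prrx1, a factor of activated fibroblasts, by 2.40 ± 0.48. By pooled UMIs, Runx1 and Creb5 stood lower in cultured stellate nuclei than in cultured hepatocytes, while the list's genes had a median of 447% of the hepatocyte level. The part of hepatocyte RNA in these rises was not tested. Lhx2 is known to hold stellate cells in the quiescent state. In spliced and ambiguous UMIs alone Gata4 turned to 0.12, and with thinned sums Lhx2 (-2.03), Tcf4 (-0.57), Runx2 (1.55) and Prrx1 (2.06) were not called.

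The genes with the largest rises came from several functions. Zfp469, a zinc finger gene, had 2 UMIs in Liver and 43 in the cultures, a ratio of 189 (95% counting interval 49.1 to 1608). Cdkn1a, the cyclin-dependent kinase inhibitor p21, ran from 0 to 4.06 CPM in Liver and from 74.0 to 224 in the cultures (median 160), a difference of 6.43 ± 0.46. The metallothioneins Mt2 and Mt1 rose by 6.37 ± 0.41 and 5.96 ± 0.33. Ier3 rose by 6.13, Hk2 (the first enzyme of glycolysis) by 5.97, Vwa3a by 5.28 and Hmga2, a chromatin protein of growing cells, by 5.26. Gpx3 (chr11:54902453-54910377, plus strand), the secreted glutathione peroxidase, rose from 0 to 11.1 CPM (median 6.35) to between 146 and 770 (median 392), a difference of 5.90 ± 0.35, and no Cell Suspension sum held a UMI of it. Lcn2, a protein of the acute-phase response, rose by 5.72 ± 0.49. Lcn2 had an unscaled mean of 192 CPM in cultured stellate nuclei and 232 in cultured hepatocytes, whereas Gpx3 had 422 and 1.94. Other rises near the level of cultured hepatocytes were Mt1 (869 and 732 CPM), Mt2 (367 and 213) and Cdkn1a (149 and 117). Of the 2063 genes that were higher than in Liver, 693 lay at least 2-fold above cultured hepatocytes and 700 at or below them. The same shares over all genes tested were not computed.

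Of 18 collagen genes tested, 6 were higher and 7 lower, with a median difference of -0.29. The list had 3 higher and 8 lower with TMM factors over all genes. The sign of the median turned to 0.69 with thinned sums (4 higher, 2 lower), to 0.11 with filterByExpr (4 and 4) and to 0.07 without mouse 5 (5 and 5). Col12a1 (chr9:79598991-79718831, minus strand), which binds to collagen fibres, rose from 0 to 25.0 CPM (median 11.6) to between 428 and 1258 (median 898), a difference of 5.94 ± 0.31 (edgeR, adjusted p = 5.7e-26). The basement membrane collagens Col4a1 and Col4a2 rose by 1.74 ± 0.26 and 2.15 ± 0.23, and Col5a2 by 0.83 ± 0.23. Col5a2 was 0.10 with TMM factors over all genes, 0.41 with the 17 nuclei added and 0.77 in spliced and ambiguous UMIs alone, and was called in none of these. Col12a1 was detected in 62.9% of cultured stellate nuclei and 3.76% of Liver stellate nuclei (37.7% and 0.913% at 600 UMIs), and in 56.0% and 14.8% of cultured hepatocytes.

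The chains of collagen types I and III were not among the rises. Col1a2 fell from 70.2 to 162 CPM (median 91.6) to between 0 and 107 (median 39.7), a difference of -1.31 ± 0.39 (edgeR, adjusted p = 0.0096). Col3a1 fell by 0.95, Col5a1 by 1.43, Col6a3 by 1.27 and Col14a1 by 0.61. Col1a1, the chain most often used to score activation, had 104 UMIs in Liver and 9 in the cultures and was not called (-0.29 ± 0.56, adjusted p = 0.78). Col1a2, Col3a1, Col6a3 and Col14a1 overlapped between the groups. Their calls were lost among nuclei at or above the median hashtag margin (-0.70, -0.55, -0.66 and -0.39), where Col1a1 was 0.36, and pool as a covariate ended those of Col3a1 (-0.85), Col5a2 (0.93), Col6a3 (-0.81) and Col14a1 (-0.68), with differences close to those above except for Col6a3. With thinned sums Col1a2 (-0.38), Col3a1 (-0.49), Col6a3 (-0.31) and Col14a1 (-0.12) were smaller and not called. Without mouse 5 Col1a2 and Col6a3 were not called, and without mouse 3 Col1a2 and Col14a1. Spliced and ambiguous UMIs alone ended the calls of Col6a3 (-1.24) and Col14a1 (-0.56), and unspliced UMIs alone that of Col14a1 (-0.40).

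**Figure D3:**
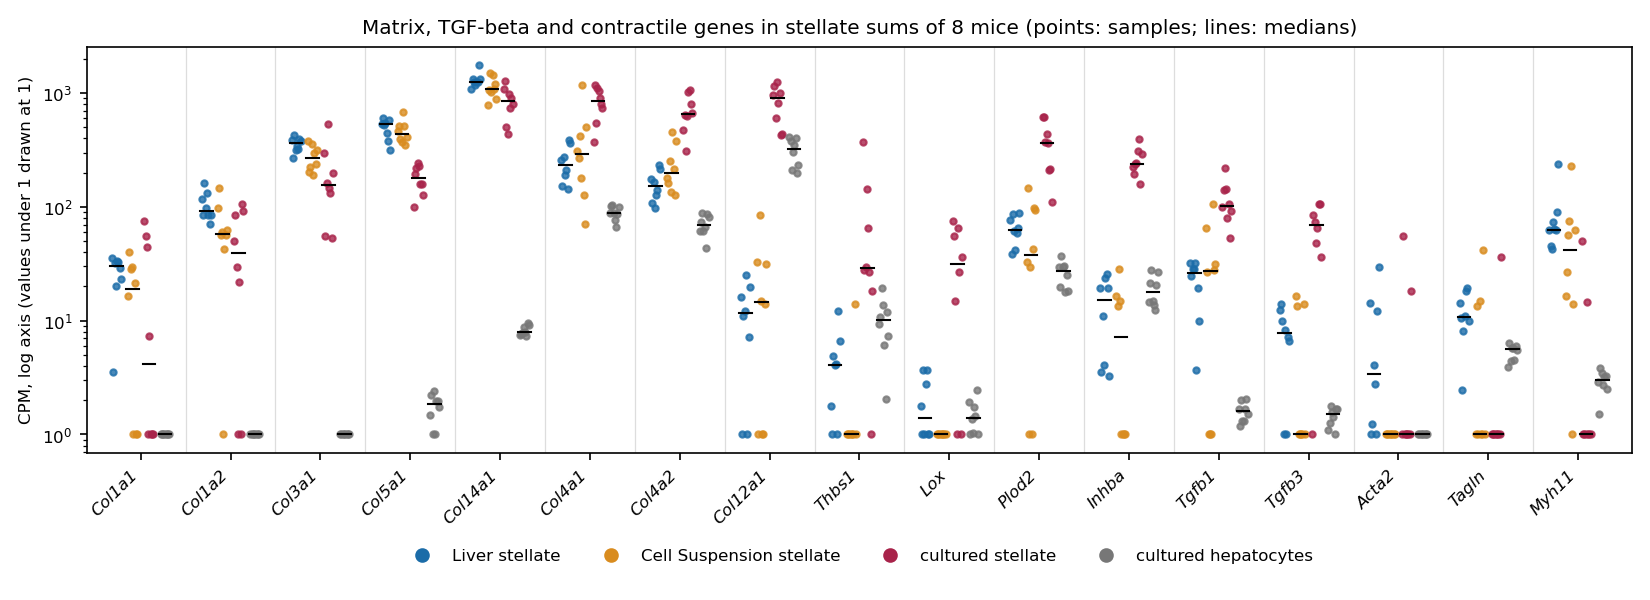
Levels in CPM on a log axis of matrix, TGF-beta and contractile genes, with a point for each mouse and a line at the median in Liver, Cell Suspension and cultured stellate nuclei and in cultured hepatocytes (values under 1 drawn at 1). Col12a1, Col4a2, Plod2, Inhba and Tgfb1 lay higher in cultured stellate nuclei of all 8 mice than in any Liver, while Col5a1 lay lower and Col1a1 and Acta2 overlapped.

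Of 24 matrix glycoproteins and proteoglycans, 5 were higher, near the 14.5% of all genes, and 6 lower, and of 19 proteases, inhibitors and crosslinking enzymes, 6 were higher and 5 lower. TMM factors over all genes made these counts 4 and 11, and 6 and 11. They were 4 and 3, and 3 and 3, with thinned sums, where both medians turned positive (0.30 and 0.18). Plod2 and P4ha1, enzymes that hydroxylate collagen, rose by 2.48 ± 0.28 and 1.55 ± 0.23 without overlap. Lox, which crosslinks collagen, had 7 UMIs in Liver and 18 in the cultures (4.05 ± 0.60), a call lost with pool as a covariate (2.87). Hspg2, the basement membrane proteoglycan perlecan, rose by 1.54 ± 0.27. Lama2, a laminin chain, fell by 3.36 ± 0.38, and Eln, elastin, had 278 UMIs in Liver and 1 in the cultures, a ratio of 31.7 (95% counting interval 5.64 to 1256).

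Of 23 genes of TGF-beta signalling, the main route to collagen synthesis in activated stellate cells, 8 were higher and 4 lower. With TMM factors over all genes 7 were higher and 7 lower, and the median turned from 0.45 to -0.24. Inhba (chr13:16011851-16031621, plus strand), the subunit of activin A, rose from 3.30 to 25.7 CPM (median 15.2) to between 161 and 399 (median 239), a difference of 4.11 ± 0.31 (edgeR, adjusted p = 6.1e-18). Tgfb1 and Tgfb3, both ligands, rose by 2.30 ± 0.37 and 2.87 ± 0.47, and the transducer Smad3 by 1.59 ± 0.21. The inhibitors Smad7 and Skil, which act against the same pathway, rose by 1.33 ± 0.25 and 2.42 ± 0.31. Tgfbi, a matrix protein induced by TGF-beta, fell by 3.68 and the co-receptor Tgfbr3 by 1.07. Bmp5, a bone morphogenetic protein, fell from 1561 to 2004 CPM (median 1841) to between 133 and 629 (median 346), a difference of -2.43 ± 0.21, while Bmp2 rose by 2.02 ± 0.39. Among growth factors and their receptors 3 of 16 were higher, near the 14.5% of all genes, and 5 lower. With TMM factors over all genes 2 were higher and 10 lower, and with thinned sums 2 and 2, with a median of 0.07 in place of -0.37. Vegfa rose by 3.49 ± 0.30 and Fgfr1 by 1.65 ± 0.32, while Pdgfd fell by 3.15 and Fgfr2 by 0.90. In spliced and ambiguous UMIs alone Tgfbr3 (-0.94) was nearly as low but not called, while Bmp5 (-1.13) and Pdgfd (-0.22) were less low and not called. With thinned sums Pdgfd (-1.68) and Fgfr2 (-0.44) were not called. Fgfr2 was not called in unspliced UMIs alone (-0.49), Smad7 with TMM factors over all genes (0.60) and Bmp2 with pool as a covariate (1.68).

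Acta2 and Tagln, smooth muscle genes that mark a myofibroblast, were not called. Acta2, the smooth muscle actin, had 26 UMIs in Liver and 3 in the cultures and differed by -0.01 ± 0.97, so no difference was detectable at this depth. Tagln had 39 and 2 (-1.10 ± 0.91, adjusted p = 0.43). Of 21 genes of the contractile and actin list 6 were higher and 2 lower, among them Actb, the actin of all cells, with 73.9 to 198 CPM in Liver and 387 to 611 in the cultures (1.99 ± 0.22). In unspliced UMIs alone Actb was 1.08 and not called. The list turned to 1 higher and 4 lower with TMM factors over all genes, with a median of -0.11 in place of 0.56. Against Cell Suspension Actb was not called (-0.22, adjusted p = 0.57). Of 25 integrins and focal adhesion genes, 5 were higher, a share near the 14.5% of all genes, and 4 were lower. With TMM factors over all genes 2 were higher and 7 lower. The fibronectin receptor chain Itga5 rose by 3.74 ± 0.31 and the collagen receptor chain Itga2 by 3.88 ± 0.45, while Itga8 fell by 4.21 and Itga1, another collagen receptor chain, by 2.62.

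Nearly the whole list of immediate early genes was higher than in Liver. Of 17 AP-1 and immediate early genes 16 were higher and none was lower, with a median of 2.62. With TMM factors over all genes 13 were higher (median 1.94) and in unspliced UMIs alone 6 (median 1.99), with none lower. Jun rose by 3.55 and Egr1 by 3.61. Fosl1, another AP-1 subunit, had 5 UMIs in Liver and 14 in the cultures, and pool as a covariate ended its call (2.14). Against Cell Suspension the same list had 7 higher and 6 lower. Over its genes, the unscaled level had a median of 92.4% of that in cultured hepatocytes. Of 21 cytokine, chemokine and receptor genes 12 were higher and 2 lower, with a median of 1.49. These were 10 and 3 (median 0.88) with TMM factors over all genes, 4 and 2 (0.40) in unspliced UMIs alone and 2 and 2 (0.19) with filterByExpr. Cxcl1 rose by 3.78 ± 0.42, Nfkbia, an inhibitor of NF-kappaB, by 3.47 ± 0.35 and Osmr, the oncostatin M receptor, by 2.41 ± 0.26, while Cxcl12 fell by 1.40 and Lifr by 1.79. With thinned sums Cxcl12 was -0.47 and not called. Lif had 1 UMI in Liver and 19 in the cultures, a ratio of 167 (95% counting interval 26.5 to 6927).

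Of 12 Nrf2 and oxidative stress genes 10 were higher and none was lower, or 6 and none with TMM factors over all genes, where the median moved from 1.77 to 1.09, and among 9 glucocorticoid responsive genes 4 were higher and none lower. With TMM factors over all genes the glucocorticoid list had 2 higher and 3 lower, with a median of 0.07 in place of 0.80. Against Cell Suspension it had 2 higher and 1 lower, with a median of -0.34. Its summed unscaled level had medians of 1834.5 CPM in Liver, 2716 in Cell Suspension and 2923 in cultured stellate nuclei. Over the genes of the Nrf2 and glucocorticoid lists, unscaled levels had medians of 49.3% and 70.8% of those in cultured hepatocytes. The part of hepatocyte RNA in these rises was not tested. Gclc, which makes glutathione, rose by 2.52 and Hmox1, the heme oxygenase, by 3.76, a call lost for Hmox1 with pool as a covariate (2.09). Fkbp5, a known glucocorticoid target, rose by 1.47 ± 0.27 and Zbtb16 by 1.45 ± 0.30, and both overlapped between the groups. The call of Fkbp5 was lost in spliced and ambiguous UMIs alone (0.79) and that of Zbtb16 with TMM factors over all genes (0.72). Of 19 cell cycle genes 8 were higher and none lower, or 5 and 1 with TMM factors over all genes and 3 and none with thinned sums. Ccnd2, a cyclin of the G1 phase, rose from 29.7 to 69.0 CPM (median 40.8) to between 290 and 813 (median 427), a difference of 3.44 ± 0.28, and was detected in 56.0% of cultured stellate nuclei but 0.5% of cultured hepatocytes. Mki67, a marker of dividing cells, had 4 UMIs in Liver and 11 in the cultures. With the greater depth of the Liver sums, these were pooled levels of 1.16 and 25.8 CPM. Cell Suspension stellate nuclei, not yet cultured, already held 7 UMIs of Mki67 in sums of 27630 to 76185 UMIs.

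Glycolysis genes were higher in 17 of 18 tested, with a median difference of 3.03. In the hepatocytes of the same mice the median was 1.83, from a separately scaled fit over both classes. By the interaction term of that fit 7 genes changed more positively in stellate nuclei and 2 more negatively (median 1.04). The summed unscaled level in endothelial nuclei had medians of 500 CPM in Liver and 2730 in the cultures. In stellate nuclei these were 417 and 2760, side by side and without a test. Pkm, the enzyme that makes pyruvate, rose from 16.2 to 29.4 CPM (median 22.1) to between 474 and 757 (median 654), a difference of 4.74 ± 0.24. The glucose transporter Slc2a1 rose by 4.71 ± 0.44, the lactate transporter Slc16a3 by 5.15 ± 0.47 and Ldha, which makes lactate, by 2.97 ± 0.35. Every culture lay above every Liver for Pkm, Slc16a3 and Ldha. Pfkm had 31 UMIs in Liver and 0 in the cultures and was not called. It was called lower with TMM factors over all genes (-3.87, edgeR, adjusted p = 0.0126), with DESeq2's size factors (-3.77, adjusted p = 0.0417) and with library sizes free of hepatocyte-enriched genes (-3.77, adjusted p = 0.0474). At an unadjusted p under 0.05 it was the only member lower than in Liver (edgeR). Against Cell Suspension 16 of the 18 were higher and 1 lower. Over the 18 genes, the unscaled level had a median of 125% of that in cultured hepatocytes.

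Promoter windows of the glycolysis list were read because its members moved together. RefSeq windows (GRCm38.p6, 250 bases before to 50 after each start) were found for all 18 genes. The motif ACGTG, the core of the site bound by hypoxia-inducible factors, was searched on both strands and so also appears as CACGT, and both overlap in CACGTG. It occurred in windows of 10 of the 18 genes (55.6%) and of 18.5% of all 27025 genes. It occurred in 3 of the 9 genes with a window among the 12 largest rises, in 1 of 8 among the 12 largest falls, and in 6 of 13 AP-1 and immediate early genes (46.2%), so a frequent match was not limited to glycolysis genes. The AP-1 motif TGANTCA occurred in 1 of the 9, in none of the 8, in none of the 13, in 1 of the 18 glycolysis genes (5.56%) and in 7.82% of all genes. These are matches of letters, with no test and no measure of binding. Stretches of 5 of the 10 glycolysis genes are shown, chosen after the matches were seen, 5′ to 3′ on the gene's strand with the matches in capitals.
Slc2a1 (chr4:119108645-119108744, plus strand): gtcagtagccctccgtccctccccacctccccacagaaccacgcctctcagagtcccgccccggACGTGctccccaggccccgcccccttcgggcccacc
Hk2 (chr6:82774455-82774554, minus strand): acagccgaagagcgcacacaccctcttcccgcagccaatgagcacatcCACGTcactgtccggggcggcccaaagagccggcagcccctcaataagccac
Pkm (chr9:59657127-59657226, plus strand): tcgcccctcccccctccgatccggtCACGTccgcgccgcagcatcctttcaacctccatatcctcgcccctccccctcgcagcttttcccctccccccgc
Ldha (chr7:46845704-46845803, plus strand): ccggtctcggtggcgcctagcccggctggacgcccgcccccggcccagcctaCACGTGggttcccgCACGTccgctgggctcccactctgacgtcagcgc
Slc16a3 (chr11:120948967-120949066, plus strand): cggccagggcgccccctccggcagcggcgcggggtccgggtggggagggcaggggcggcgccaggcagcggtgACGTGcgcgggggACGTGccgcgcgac

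**Figure D4:**
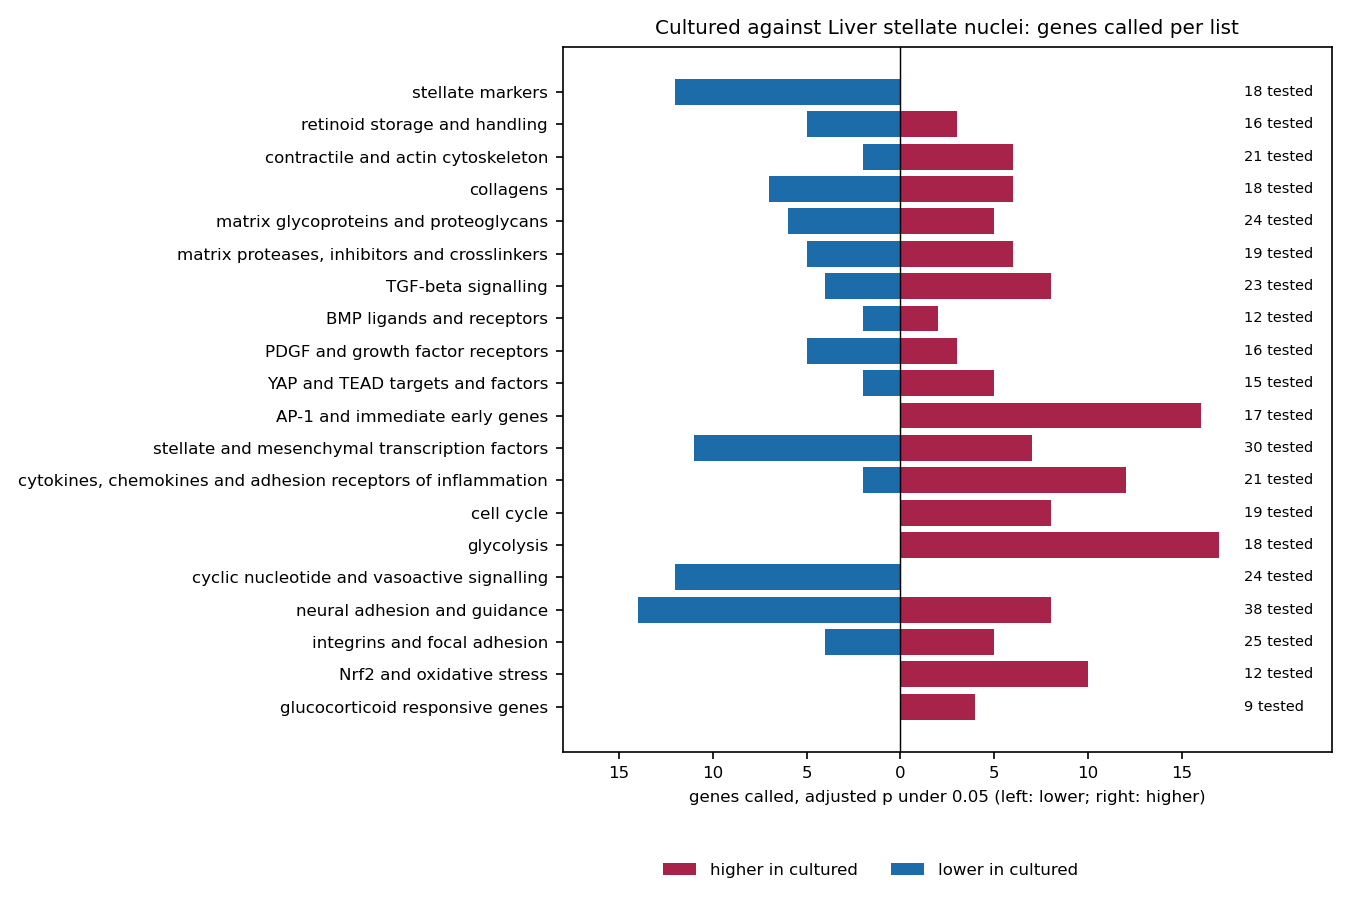
Number of genes of each list that were called lower (left) or higher (right) in cultured than in Liver stellate nuclei, at an adjusted p under 0.05. The glycolysis, AP-1 and Nrf2 lists had 17, 16 and 10 genes higher and none lower, the stellate marker and vasoactive lists 12 lower each and none higher, and the collagen list 6 higher and 7 lower. With TMM factors over all genes the glycolysis list had 16 higher and 1 lower, and the AP-1 and Nrf2 lists had 13 and 6 higher and none lower.

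The last comparison asked whether a gene's culture change differed between stellate nuclei and hepatocytes of the same mice, by an interaction term over both classes. Of 26183 genes 993 (3.79%) had a more positive change in stellate nuclei and 1591 (6.08%) a more negative one. This split turned with the method: 601 and 2894 with TMM factors over all genes, 1492 and 1198 with library sizes free of hepatocyte-enriched genes, 4344 and 1653 with DESeq2, 604 and 4107 with limma on the difference within mice, and 272 and 62 with all sums thinned to the same total. Named by a fixed rule, the most positive were Inhba (4.61), Lpl (4.56), Dhrs3 (4.45), Gpx3 (3.98), Chst11 (3.67), Hdac9 (3.66), Creb3l1 (3.52) and B3galt1 (3.41). Each is the stellate minus the hepatocyte log2 change within the fit over both classes. That fit was scaled apart from the comparison with Liver. The stellate changes printed here come from the comparison with Liver, so they do not subtract exactly to the interactions. Dhrs3 (chr4:144892827-144928209, plus strand), which turns retinal back into retinol, rose in stellate nuclei by 2.39 ± 0.27 and changed by -2.42 in hepatocytes. Inhba changed by -0.78 and Lpl by -1.68 in hepatocytes. Chst11, an enzyme of chondroitin sulfate synthesis, rose by 4.56 in stellate nuclei and changed by 0.58 in hepatocytes. B3galt1 was lower in both, by 1.56 on the log2 scale in stellate nuclei, and its change in hepatocytes was -5.32. Its difference from Liver in spliced and ambiguous UMIs alone was -1.84 and not called. In spliced and ambiguous UMIs alone the interactions of Chst11 (3.97) and B3galt1 (3.58) were as large but not called, and in unspliced UMIs alone that of Gpx3 was 1.76 and not called.

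At the other end stood Colec10 (-8.57), Mapt (-7.38), Grin2b (-7.01), Bvht (-6.76), Spats2l (-6.22), Plcl1 (-6.07) and Reln (-5.87). The value of Colec10 rests on 1 UMI in all cultured stellate nuclei. Mapt, the microtubule protein tau, fell by 3.87 in stellate nuclei and changed by 3.17 in hepatocytes. Plcl1 fell by 1.64 in stellate nuclei, from 1032 to 1613 CPM (median 1309) to between 104 and 638 (median 434), and changed by 4.08 in hepatocytes. Its difference from Liver was as large in spliced and ambiguous UMIs alone (-1.53) but not called. Reln changed by -2.75 in stellate nuclei and by 2.78 in hepatocytes, and its unscaled level in cultured stellate nuclei was still 3.10-fold that in cultured hepatocytes. With thinned sums the interactions of Inhba (4.15), Gpx3 (5.32), Chst11 (4.08) and Colec10 (-6.998) stayed near the values above or exceeded them but were not called, while those of Lpl (2.77), Creb3l1 (2.37), Hdac9 (1.54), Spats2l (-3.75) and Bvht (-3.03) were smaller and not called. For Grin2b, a glutamate receptor subunit, the unscaled means in culture were 34.8 CPM in stellate nuclei and 50.6 in hepatocytes.

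**Figure D5:**
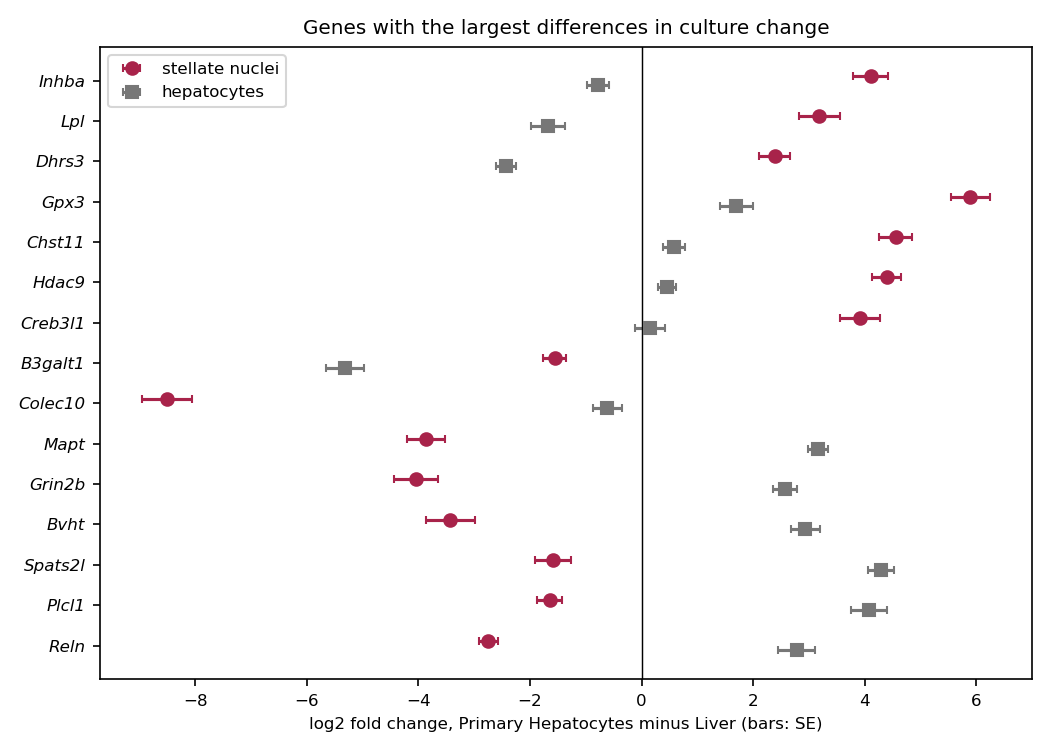
Culture change (log2, Primary Hepatocytes over Liver) in stellate nuclei and in hepatocytes for 15 of the genes with the largest differences between the classes, with bars for the standard error. Stellate changes are from the comparison with Liver and hepatocyte changes from the fit over both classes, which was scaled separately. Reln, Mapt and Plcl1 were lower in cultured stellate nuclei and higher in cultured hepatocytes, while Dhrs3 and Lpl showed the opposite.

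Within the pools that held both sample types, the directions were compared for the 1331 called genes of at least 100 CPM. In pool 2, with 1 Liver and 1 culture, 1162 (87.3%) had the direction of the whole comparison, in pool 5 1321 (99.2%), and in both 1152 (86.6%). These genes had been called with the same libraries included, which favours a shared direction, so the shares describe the pools and support nothing. The fit with pool as a covariate called 1408 genes, not all of them among the 2990 called without it. Without the 2 cultured sums under 25000 UMIs, an alternative chosen after the data were seen, 2757 genes were called against Liver. Of the 927 genes lower than in Liver, 353 were at least 2-fold above cultured hepatocytes, as were 693 of the 2063 higher genes. Another 91 of the 927 had no UMI in any cultured stellate nucleus. The shares over all genes tested were not computed, so these counts describe the called genes only.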

How the data were processed

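Nuclei of 24 tissue samples (8 mice, 3 sample types) were sequenced in 6 pools. Per the labels and the study's methods, the authors demultiplexed reads with bcl2fastq 2.19.0, counted spliced, unspliced and ambiguous UMIs with Salmon Alevin and Alevin-fry against GRCm38, assigned hashtags with mclust, removed doublets with scDblFinder and clustered with Seurat after SCTransform. The deposited values were whole-number counts per gene and nucleus, and the deposited nucleus table gave cluster, sample and, as a fraction, the share of spliced RNA and the assignment margin. Each nucleus took its sample from that table.

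From these counts, all UMIs were summed per mouse and class (at least 5 nuclei), and genes with at least 10 counts over the sums were tested with edgeR 4.0.16 (quasi-likelihood, R 4.3.3), adjusted over all genes. Normalization had been planned with TMM over all genes tested. On simulated data with 200 changed genes these factors followed depth (median shift of unchanged genes -0.36, 51 false of 172 calls). After the data were seen, the factors were therefore taken from the genes that filterByExpr keeps in the stellate sums (shift -0.02, 4 false of 107 calls) and applied to all genes. The simulation held far fewer changed genes than the 2990 called here, so it cannot decide which factors suit the real comparison. In that simulation of cultured against Liver sums, on 13594 genes, 80.2% of 4-fold and 25% of 2-fold changes were recovered. Single values were compared by exact permutation tests in Python 3.11.15. Counting intervals (95%) and floors of 3 counts cover counting error only.

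The members, lists and tests were chosen with earlier results of these data known. The 12 largest rises and falls (16 and 10 candidates passed over by the rule) were called genes of at least 100 CPM in the higher group without overlap, and the 8 largest interactions in each direction were called genes by the same kind of rule. Mouse numbers recur across sample types and each stands for 1 animal, which pairs the samples by design, although deviations within a pair correlated at -0.199 to 0.070 over 3873 genes. Alternatives were other normalizations (DESeq2 1.42.0 among them), limma 3.58.1, filters, splicing classes, assignment margins, thinned sums, pool as a covariate and leaving out each mouse. Promoters came from RefSeq GRCm38.p6 and gene positions from the GENCODE annotation of GRCm38. Protein sequences were not used here. Some genes that the rules selected are not reported here.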

Additional observations from a re-analysis of the deposited data

Results flagged for a closer look

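Single samples far from the others of their group turned up in 16 of 98 groups tested with Dixon's critical values. For evenly measured, normally spread values that test marks about 1 in 20 groups by chance, a rate that need not hold for genes with 0 to a few UMIs per sample. In Cell Suspension, mouse 2 had a stellate share of 2.21% and mouse 7 a spliced share of 16.7%. In Liver, the far values were 6994 CPM of Rbms3 in mouse 7, 2.46 of Zfp469 in mouse 3, 8.12 of Ier3 in mouse 4, 43.0 of Mt1 in mouse 5, 1636 of Colec10 in mouse 2 and 523.5 of Fam19a1 in mouse 4. In the cultures they were 695.8 CPM of Lcn2 in mouse 1, 18.2 of Colec10 in mouse 8, 145.2 of Nr1h5 in mouse 4, 160.7 of Egfem1 in mouse 7, 56.1 of Fam19a1 in mouse 2, 24.9 of Rasgrp2 in mouse 1, 29.6 of Frem1 in mouse 3 and 14.6 of Adamts5 in mouse 5. For the genes near 0 in the cultures, such a value stood for 1 to a few UMIs.

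The culture change differed between stellate nuclei and hepatocytes, by the interaction term, for 993 genes in the positive and 1591 in the negative direction. The interaction (log2, stellate minus hepatocyte change within the fit over both classes) was 4.61 for Inhba, 4.56 for Lpl, 4.45 for Dhrs3, 3.98 for Gpx3, 3.67 for Chst11, 3.66 for Hdac9, 3.52 for Creb3l1 and 3.41 for B3galt1. It was -8.57 for Colec10, -7.38 for Mapt, -7.01 for Grin2b, -6.76 for Bvht, -6.22 for Spats2l, -6.07 for Plcl1 and -5.87 for Reln.

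In data outside the comparisons, 6 nuclei of the cultured cluster were assigned to Liver or Cell Suspension samples. The 17 cultured nuclei annotated with the tissue cluster held 4114 CPM of Ank3.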

How the results depend on the processing

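Against Liver, the 2990 calls became 973 with filterByExpr (477 higher, 496 lower), 1496 with spliced and ambiguous UMIs, 1389 with sums thinned to 18308 UMIs (1131 higher, 258 lower) and 1408 with pool as a covariate. Against Cell Suspension, the 2055 calls became 853 with filterByExpr, 914 with spliced and ambiguous UMIs and 1125 with thinned sums. The 2584 interactions became 1000 with spliced and ambiguous UMIs, 1608 among nuclei at or above the median margin, 334 with thinned sums, 5997 with DESeq2 and 4711 with limma. With mouse as a replicate block, the counts were 2722, 1811 and 2627, and the block changed no other call among the results named, apart from the direction of Acta2. Leaving out each mouse gave 2317 to 2869, 1654 to 1977 and 2086 to 2404. The difference in hepatocyte marker RNA (-0.118 percentage points) was -0.135 without Alb (exact permutation test, p = 0.0135), -0.213 at or above the median margin (p = 0.0107) and -0.162 to -0.0724 when leaving out a mouse, and passed 0.05 without mouse 3 or mouse 4. The causes were not tested.

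Of 3951 alternative values of single genes, 3782 kept direction and call, 127 lost the call, 7 gained it and 35 reversed. The reversed genes had not been called in the comparison as reported, except Gata4. Ecm1 was -0.0704 with DESeq2's size factors and -0.0724 with DESeq2, -0.65 with TMM over all genes, -0.32 in spliced and ambiguous UMIs, -4.99 in unspliced UMIs and -0.91 with pool (both then called lower, edgeR, adjusted p = 0.00846 and 0.0253), -0.0258 without mouse 1 and -0.0688 without mouse 8, up to 0.19 without mouse 3. Dcn was -0.50 and Pcdh7 -0.49 with TMM over all genes, -0.0016 and -0.0268 with the 17 nuclei added, and Dcn -0.46 with pool, while Pcdh7 was called higher in spliced and ambiguous UMIs (1.25) and at the higher margin (0.80). Alb was -0.34 with TMM over all genes and -0.84 in unspliced UMIs, and was called higher with thinned sums (0.97). Acta2 was 0.0022 with at least 10 nuclei, 0.22 in unspliced UMIs, 1.29 at the higher margin, 0.11 with the replicate block, 1.06 with pool, 0.20 with DESeq2, 0.13 without the 2 shallow sums, and 0.31, 0.05, 0.33, 0.16 and 0.09 without mouse 1, 3, 5, 7 and 8, down to -1.47 without mouse 2. Pdgfrb was 0.0077 in unspliced UMIs, 0.22 at the higher margin and 0.26 with thinned sums, and was called lower with TMM over all genes (-0.91). Col1a1 was 0.36, 1.68 and, without mouse 5, 0.13, down to -0.71 without mouse 1. Gata4 was 0.12 in spliced and ambiguous UMIs and Tagln 0.22 with pool. Calls were lost most often for Tek (14 alternatives), Flna (11) and Pck1 (8). With 7 to 50 nuclei per culture, genes at a few UMIs could not be resolved.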
